A study of Mus musculus with 36 samples.

Results

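The genes described here are 9 genes of the transforming growth factor beta (TGF-beta) pathway, followed in 3T3-L1, a line of mouse fibroblasts that can be turned into fat cells. They were chosen by name: the ligand genes Tgfb1, Tgfb2 and Tgfb3, the activin subunit gene Inhba, the receptor genes Tgfbr1, Tgfbr2 and Tgfbr3, and the inhibitor genes Smad7 and Pmepa1. These are 9 of the 52505 genes in the expression table, and all 9 reached the minimum mean of 1 FPKM (fragments per kilobase, scaled to library depth) over the libraries, as did 12961 genes in all. None of the 9 reached it through its highest group alone. RNA was sequenced from cells labelled zfp217-/- (KO) on day 2, cells labelled wild type (WT) on day 2, KO cells on day 0 and WT cells on day 0, with 3 libraries in each group and 12 in all. Zfp217 encodes a zinc finger transcription regulator, and the design asks how its loss changes gene expression before and during adipogenic induction. All groups carry the same treatment label, growth followed by a cocktail of dexamethasone, the phosphodiesterase inhibitor isobutylmethylxanthine, insulin and indomethacin, and differ in the day on it.

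TGF-beta ligands are secreted in a latent form, bound to binding proteins of the extracellular matrix, and become active when released. The active ligand joins the type II receptor, encoded by Tgfbr2, to the type I receptor, encoded by Tgfbr1, which then phosphorylates the signal carriers Smad2 and Smad3. Smad7 and Pmepa1 are induced by the pathway and act back on it as inhibitors. In preadipocytes TGF-beta is known as a restraint on fat cell formation and as an inducer of matrix genes.

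The libraries held between 18073258 and 23114994 reads, as recovered from the deposited values. The message of Zfp217 itself was not lower in the libraries labelled KO. On day 2 it was 22.6 ± 0.858 FPKM in KO-labelled cells and 15.1 ± 0.369 in WT cells (SD, n = 3 each; log2 change 0.55, SE 0.04, limma adjusted p = 2.41e-08), and on day 0 it was 26 ± 0.883 in KO-labelled cells and 22.0 ± 0.279 in WT cells (log2 change 0.23, SE 0.04, adjusted p = 7.58e-05). Message level alone does not show whether the protein was lost, so the label could not be checked this way. Each direction given for KO is therefore one between libraries as labelled. The labels do not say how the KO was made, whether it is a single clone, or whether replicates are separate cultures. The spread behind the p-values is that between these libraries and may be technical. The library WT day 0 replicate 3 stood apart, where 24 genes differed 4-fold or more from the rest of the group. The other 11 libraries had 3 to 9 such genes. None of the 24 is among the 9 genes, whose values in that library were 0.964 to 1.09 times the mean of the other WT day 0 libraries.

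The labelled cell type was checked by markers. The summed level of 9 preadipocyte and fibroblast markers was 6558 to 6799 FPKM in KO-labelled day 2, 1142 to 1170 in WT day 2, 20630 to 21240 in KO-labelled day 0 and 7990 to 8264 in WT day 0 libraries. The day 0 sums were mostly Col1a1 (9746 in KO-labelled, 3536 in WT cells) and Col3a1 (7789 and 1082). On day 0 Vim (1570 and 2360) and Cd34 (0.280 and 3.94) were lower in KO-labelled cells, and Thy1 was nearly level (538 and 519). The other markers were higher. Col1a1 is also among the target genes below. The summed level of 8 fat cell markers was 396 to 407, 8393 to 8572, 197 to 209 and 69.2 to 74.4 FPKM in the same order of groups. Lpl made up most of the day 0 sums, at 190 FPKM in KO-labelled and 55.9 in WT cells. It was at 273 in KO-labelled day 2 cells. Pparg went the other way on day 0, at 2.85 in KO-labelled and 10.2 in WT cells. All 4 endothelial and all 4 epithelial markers stayed under 1 FPKM in every library, with Epcam listed at 0 throughout, and 6 of 8 blood cell markers did so too. The summed blood cell markers were 16.4 to 16.9 FPKM in KO-labelled day 0 cells, where the lysozyme gene Lyz2 was 14.8 ± 0.156, and 3.01 to 9.07 in all other libraries. These marker sums move with the groups, and their part in the results below was not tested. In bulk RNA, fewer cells of a type cannot be told apart from less RNA per cell.

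Promoter stretches are shown for Tgfb1 and Tgfb2, the ligand genes that moved in opposite directions on day 2, and for Tgfbr1 and Tgfbr2, the receptor genes that did so on both days. Each is the 200 bases before an annotated start, from RefSeq promoters of the build GRCm38.p6, which held entries for 5 of the 9 genes. Capitals mark the letters TATAAA, searched on the strand of the gene, and the letters CGTCA, the letters GGGCGG and the letters CAGAC, each searched on both strands.
Tgfb1 (chr7:25686802-25687001, plus strand): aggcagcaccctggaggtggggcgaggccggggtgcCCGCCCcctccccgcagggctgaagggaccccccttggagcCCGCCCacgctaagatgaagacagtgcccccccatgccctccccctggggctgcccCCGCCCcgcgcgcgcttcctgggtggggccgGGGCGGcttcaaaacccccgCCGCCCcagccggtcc
Tgfb2 (chr1:186705990-186706189, minus strand): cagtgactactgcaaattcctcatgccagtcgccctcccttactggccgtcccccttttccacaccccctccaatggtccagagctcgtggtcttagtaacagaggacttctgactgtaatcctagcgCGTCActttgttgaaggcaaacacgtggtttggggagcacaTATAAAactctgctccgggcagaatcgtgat
Tgfbr1 (chr4:47353022-47353221, plus strand): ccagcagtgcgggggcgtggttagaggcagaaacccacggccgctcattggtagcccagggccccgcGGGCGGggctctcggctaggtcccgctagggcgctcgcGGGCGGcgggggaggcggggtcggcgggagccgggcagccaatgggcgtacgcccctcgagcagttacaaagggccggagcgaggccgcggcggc
Tgfbr2 (chr9:116175364-116175563, minus strand): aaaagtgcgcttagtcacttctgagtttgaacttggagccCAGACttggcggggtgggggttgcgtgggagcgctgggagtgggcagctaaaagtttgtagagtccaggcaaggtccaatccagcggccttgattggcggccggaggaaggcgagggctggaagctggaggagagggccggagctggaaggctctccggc

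The ligand promoters differ in their letters. The Tgfb1 stretch is 77.5% G and C, holds GGGCGG or its complement 5 times and holds no TATAAA. The Tgfb2 stretch is 52.5% G and C, with TATAAA starting 31 bases before the start and CGTCA, the core of the cyclic AMP response element, starting 72 bases before it. This stretch lies inside the span of Tgfb2, 186622787 to 186709697, so its start is an internal one. The other stretches shown adjoin the end of the gene span. The Tgfbr1 stretch shown has GGGCGG 2 times, while the stretch before a second annotated start of Tgfbr1 is 53.5% G and C and holds none of the 4 motifs. The Tgfbr2 stretch has CAGAC, the core of a Smad binding element, once, 160 bases before its start. Of 32851 promoters of the same length, 6.27% hold TATAAA, 15.7% CGTCA, 31.0% GGGCGG and 35.5% CAGAC, each searched in the same way. A match describes the letters and does not show that a factor binds there.

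Across the 9 genes most groups were far apart relative to the spread between libraries. Overlaps were found between the genotypes for Tgfb1 on day 0 and Tgfb3 on day 2, and between the days for Tgfbr1 in KO-labelled cells. KO-labelled cells differed from WT cells in 9 of 9 genes on day 2, 4 higher and 5 lower, where 81.4% of all genes tested passed, 40.8% higher and 40.6% lower. On day 0 they differed in 8 of 9, 3 higher and 5 lower, where 82.4% of all genes passed, 38.3% higher and 44.2% lower. These shares are near the background, so the count says nothing particular about the pathway, and the content lies in which genes moved and how far. A change of at least 2-fold on the log2(FPKM + 1) scale was found in 5 of the 9 genes on day 2, against 24.3% of all genes, and in 2 on day 0, against 22.3%. The median log2 change of the 9 genes was -0.16 on day 2 and -0.70 on day 0, that of all genes 0.00 and -0.06. The balance of all genes on day 0 turned under other settings. It was 5541 higher and 5032 lower with TPM scaling, and 5425 and 5237 with quantile normalization. With no filter it was 7115 and 6728, against 4958 and 5726 as reported.

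**Figure D1:**
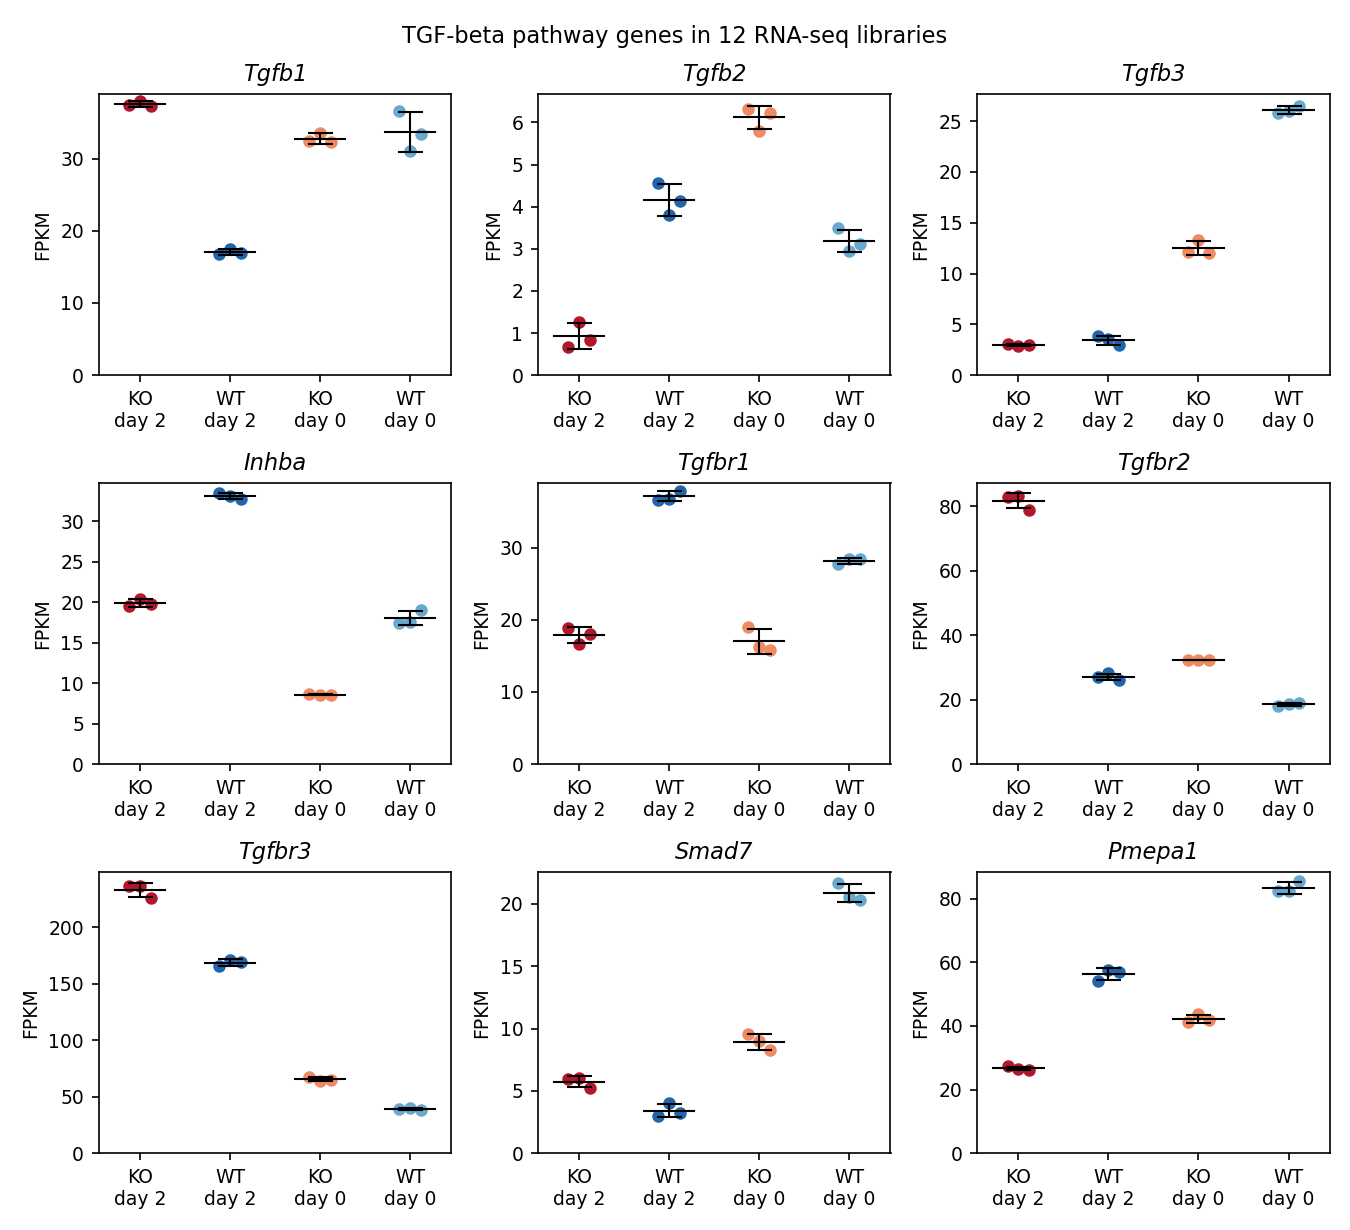
FPKM (vertical axis, from 0, own scale in each panel) of the 9 genes in each library, for cells labelled KO or WT on day 2 and day 0. Points are libraries, the long bar is the group mean and the whisker the SD (n = 3). The KO-labelled day 2 libraries are highest for Tgfb1, Tgfbr2 and Tgfbr3 and lowest for Tgfb2 and Pmepa1.

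Tgfb1 (ENSMUSG00000002603, chromosome 7, 25687002 to 25705077), the most widely made TGF-beta ligand, was kept up in KO-labelled cells on day 2 and was lower in WT cells on that day. It was at 37.4, 37.9 and 37.2 FPKM in the KO-labelled day 2 libraries, 16.8, 17.5 and 16.9 in WT day 2, 32.5, 33.6 and 32.3 in KO-labelled day 0 and 36.5, 31.1 and 33.4 in WT day 0. The WT day 2 libraries lie below all others, and the groups of day 0 overlap. On day 2 the level in KO-labelled cells was 2.2 times that in WT cells (log2 change 1.09, SE 0.05, limma adjusted p = 4.76e-10). On day 0 the change of KO against WT was -0.04 (SE 0.05, adjusted p = 0.495), and its sign turned to 0.07 with TPM scaling, 0.08 with quantile normalization and 0.02 without WT day 0 replicate 1.

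Tgfb2 (ENSMUSG00000039239, chromosome 1, 186622787 to 186709697), the least abundant of the TGF-beta ligand messages in KO-labelled cells, went the other way. Its values were 0.659, 1.26 and 0.845 FPKM in KO-labelled day 2 libraries, 4.57, 3.80 and 4.12 in WT day 2, 6.33, 5.80 and 6.23 in KO-labelled day 0 and 3.49, 2.96 and 3.11 in WT day 0. Its 4 groups do not overlap, with KO-labelled cells lowest on day 2 and highest on day 0. The KO-labelled mean was 4.51-fold below WT on day 2 (log2 change -1.43, SE 0.11, limma adjusted p = 8.52e-08) and 1.92 times WT on day 0 (log2 change 0.77, SE 0.11, adjusted p = 2.84e-05). The day 2 values of KO-labelled cells rest on 27 to 44 reads a library, the fewest of any of the 9 genes.

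Tgfb3 (ENSMUSG00000021253, chromosome 12, 86056743 to 86079041), the ligand known for its role in palate closure, was mainly a message of day 0. It was at 3.05, 2.89 and 2.95 FPKM in KO-labelled day 2 libraries and 3.81, 3.57 and 2.96 in WT day 2, against 12.1, 13.3 and 12 in KO-labelled day 0 and 25.8, 26 and 26.5 in WT day 0. The day 2 groups overlap and lie below both day 0 groups, in which KO-labelled libraries are all below WT. The KO-labelled mean was 2.09-fold below WT on day 0 (log2 change -1.01, SE 0.07, limma adjusted p = 3.02e-08). The day 2 difference of -0.16 (SE 0.07, adjusted p = 0.0404) was past the threshold only narrowly. It missed it with no filter (adjusted p = 0.0751), with TPM scaling (0.0866), with only the libraries compared (0.119), in the fit on recovered reads (0.0547) and when any of 8 libraries was left out, as WT day 2 replicate 1 (change -0.10, adjusted p = 0.168).

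The mixture of ligand messages therefore differed between groups. The summed level of Tgfb1, Tgfb2 and Tgfb3 was 41.4 ± 0.592 FPKM in KO-labelled day 2, 24.7 ± 0.602 in WT day 2, 51.4 ± 1.12 in KO-labelled day 0 and 62.9 ± 2.88 in WT day 0 cells (SD, n = 3 each). Tgfb1 made up 90.6% ± 0.435 of that sum in KO-labelled day 2 and 69.2% ± 2.13 in WT day 2 cells, and 63.8% ± 0.0533 in KO-labelled day 0 and 53.4% ± 1.92 in WT day 0 cells. Tgfb3 held 7.16% ± 0.279 of the sum in KO-labelled day 2 cells and 41.5% ± 2.12 in WT day 0 cells. Levels of different genes are set side by side per length, with the gene lengths the authors used.

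**Figure D2:**
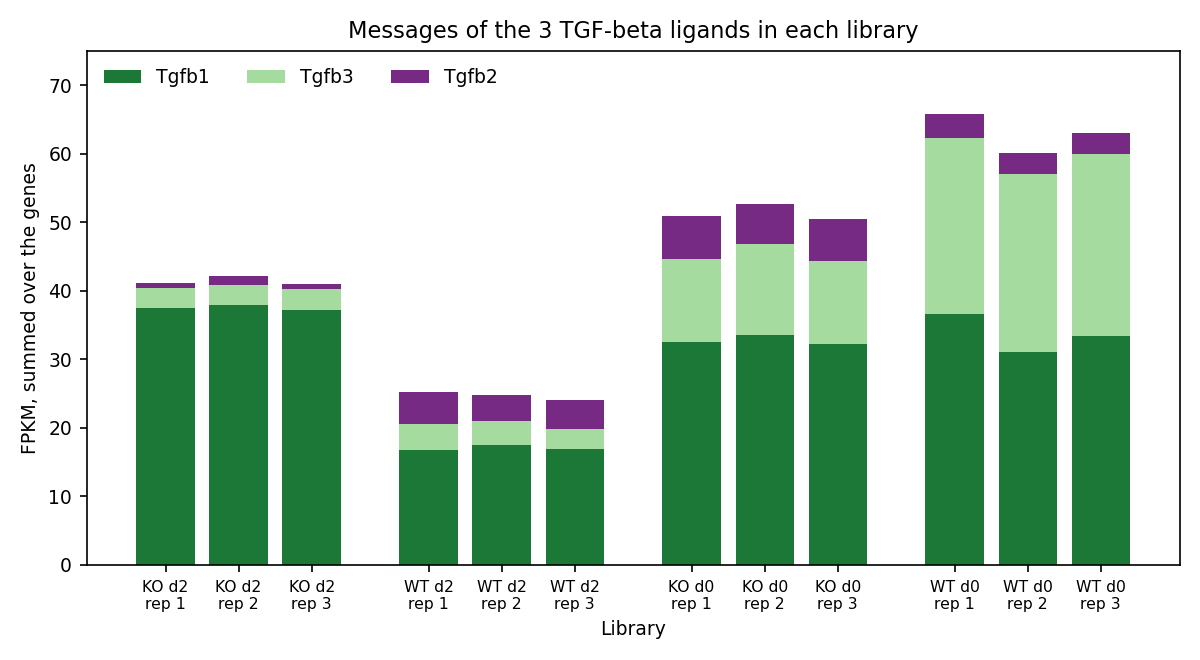
Stacked FPKM of Tgfb1, Tgfb3 and Tgfb2 (vertical axis, from 0) in each of the 12 libraries, for cells labelled KO (d2), WT (d2), KO (d0) and WT (d0). The sum is 41.4 FPKM on average in KO-labelled day 2 libraries, nearly all of it Tgfb1, and 24.7 in WT day 2 libraries.

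Inhba (ENSMUSG00000041324, chromosome 13, 16004256 to 16031609) encodes the beta A subunit, a pair of which forms activin A, a relative of TGF-beta that signals through the same Smad proteins. Its level was 19.5, 20.4 and 19.8 FPKM in KO-labelled day 2 libraries, 33.5, 33.1 and 32.7 in WT day 2, 8.72, 8.49 and 8.57 in KO-labelled day 0 and 17.4, 17.6 and 19.0 in WT day 0. The groups do not overlap, and KO-labelled cells are below WT cells on each day. They were 1.66-fold lower on day 2 (log2 change -0.71, SE 0.04, limma adjusted p = 2.45e-09) and 2.1-fold lower on day 0 (log2 change -0.99, SE 0.04, adjusted p = 1.22e-10). The message of follistatin (Fst), a secreted protein that binds and blocks activin, stood at 2.63 ± 0.118 times that of Inhba in KO-labelled day 2, 1.06 ± 0.0425 in WT day 2, 1.02 ± 0.0742 in KO-labelled day 0 and 0.722 ± 0.0212 in WT day 0 cells.

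The receptors split. Tgfbr1 (ENSMUSG00000007613, chromosome 4, 47353222 to 47414926), the type I receptor gene, was at 18.8, 16.7 and 18.1 FPKM in KO-labelled day 2 libraries, 36.6, 36.7 and 37.9 in WT day 2, 19.0, 16.2 and 15.8 in KO-labelled day 0 and 27.7, 28.4 and 28.4 in WT day 0. Every KO-labelled library is below every WT library, and the KO-labelled libraries of the days overlap. The KO-labelled mean was 2.08-fold lower on day 2 (log2 change -1.02, SE 0.06, limma adjusted p = 1.08e-08) and 1.66-fold lower on day 0 (log2 change -0.70, SE 0.06, adjusted p = 3.93e-07).

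Tgfbr2 (ENSMUSG00000032440, chromosome 9, 116087695 to 116175363), the type II receptor gene that binds the ligand first, was higher in KO-labelled cells instead. It was at 83, 83.3 and 79.0 FPKM in KO-labelled day 2 libraries, 26.9, 28.2 and 26.2 in WT day 2, 32.2, 32.4 and 32.3 in KO-labelled day 0 and 18.1, 18.6 and 19.1 in WT day 0. No groups overlap, and KO-labelled day 2 cells stand well above the rest. The KO-labelled level was 3.01 times WT on day 2 (log2 change 1.56, SE 0.03, limma adjusted p = 6.74e-13) and 1.74 times WT on day 0 (log2 change 0.77, SE 0.03, adjusted p = 4.73e-10). The ratio of Tgfbr2 to Tgfbr1 messages was 4.59 ± 0.346 in KO-labelled day 2, 0.732 ± 0.0375 in WT day 2, 1.91 ± 0.190 in KO-labelled day 0 and 0.661 ± 0.00809 in WT day 0 cells.

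Tgfbr3 (ENSMUSG00000029287, chromosome 5, 107106567 to 107289629), the gene of the co-receptor betaglycan, was the highest of the 9 genes in 3 of the 4 groups. It stood at 236, 236 and 226 FPKM in KO-labelled day 2 libraries, 165, 171 and 169 in WT day 2, 67.4, 63.8 and 64.7 in KO-labelled day 0 and 39.1, 40.0 and 38.3 in WT day 0. The groups keep apart, day 2 above day 0 and KO-labelled above WT on each day. The ratio of KO-labelled to WT cells was 1.38 on day 2 (log2 change 0.46, SE 0.03, limma adjusted p = 1.43e-08) and 1.67 on day 0 (log2 change 0.72, SE 0.03, adjusted p = 2.37e-10). Betaglycan presents TGF-beta2 to the type II receptor, whose gene was the other receptor gene of the 3 that was higher in KO-labelled cells on each day.

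The inhibitor genes parted on day 2. Smad7 (ENSMUSG00000025880, chromosome 18, 75367365 to 75395935) encodes the inhibitory Smad that blocks the type I receptor. Its level was 5.94, 6.02 and 5.21 FPKM in KO-labelled day 2 libraries, 3.01, 4.01 and 3.24 in WT day 2, 9.58, 9.0 and 8.29 in KO-labelled day 0 and 21.7, 20.6 and 20.4 in WT day 0. The order of the genotypes turns between the days, with no overlap at either. KO-labelled cells were at 1.67 times WT on day 2 (log2 change 0.61, SE 0.08, limma adjusted p = 2.55e-05) and 2.33-fold below WT on day 0 (log2 change -1.14, SE 0.08, adjusted p = 8.13e-08).

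Pmepa1 (ENSMUSG00000038400, chromosome 2, 173224458 to 173276731), whose membrane protein holds back Smad2 and Smad3, was lower in KO-labelled cells throughout. It was at 27.3, 26.5 and 26.1 FPKM in KO-labelled day 2 libraries, 54.1, 57.6 and 57.1 in WT day 2, 41.3, 43.7 and 41.7 in KO-labelled day 0 and 82.3, 82.4 and 85.6 in WT day 0. All groups are apart. The KO-labelled mean was 2.11-fold lower on day 2 (log2 change -1.05, SE 0.03, limma adjusted p = 2.21e-11) and 1.98-fold lower on day 0 (log2 change -0.97, SE 0.03, adjusted p = 5.56e-11). Pmepa1 lies on the same chromosome as Zfp217, which spans 170108643 to 170151677. The 14 other tested genes within 1 Mb of Pmepa1 had a median log2 change of -0.84 on day 2 and -0.19 on day 0. An antisense gene, Pmepa1os, reached at most 0.695 FPKM in any library. Whether the counting used strand is not stated in the labels. The 11 neighbours of Tgfbr1 within the same distance had medians of -0.43 on day 2 and -0.52 on day 0. The part of such neighbourhoods in the changes was not tested.

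**Figure D3:**
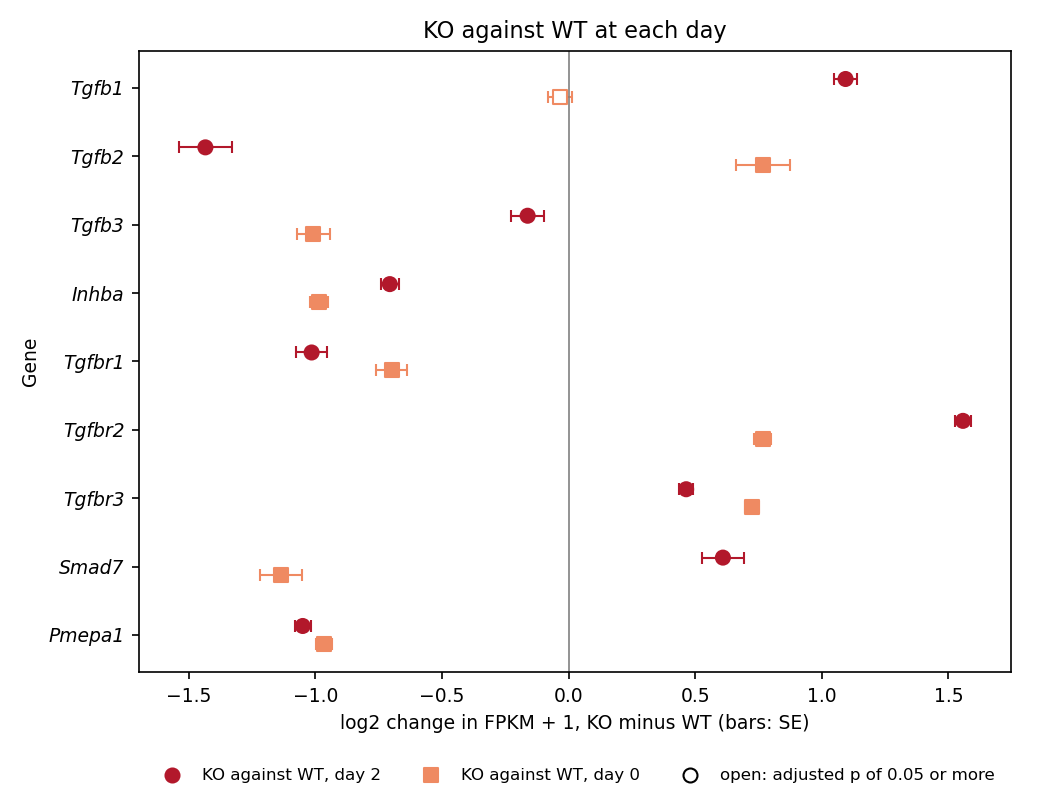
log2 change in FPKM + 1 of cells labelled KO against WT (horizontal axis) for the 9 genes on day 2 (circles) and day 0 (squares), with SE bars. Open symbols have an adjusted p of 0.05 or more. Tgfb2 and Smad7 lie on opposite sides of 0 on the 2 days, at -1.43 and 0.77 for Tgfb2 and 0.61 and -1.14 for Smad7.

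On both days KO-labelled cells were higher than WT cells for Tgfbr2 and Tgfbr3, a combination held by 25.5% of all genes tested. They were lower on both days for Tgfbr1, Inhba, Pmepa1 and Tgfb3, the last with a narrow call on day 2, as were 27.9% of all genes. Tgfb2 was lower on day 2 and higher on day 0, as were 6.71% of all genes. Smad7 was higher on day 2 and lower on day 0, as were 9.81% of all genes.

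The comparison of day 2 with day 0 asks how each genotype responds to the cocktail. No group was kept to day 2 without it, so cocktail and time in culture cannot be told apart. In WT cells all 9 genes passed, 5 higher and 4 lower on day 2, where 80.7% of all genes passed, 34.2% higher and 46.5% lower. In KO-labelled cells 8 passed, 4 higher and 4 lower, where 72.7% of all genes passed, 33.9% higher and 38.8% lower. A change of at least 2-fold was found in 5 of the 9 genes in KO-labelled cells, against 12.5% of all genes, and in 3 in WT cells, against 24.3%. The receptor genes Tgfbr2 and Tgfbr3 and the activin gene Inhba rose in each genotype, and Tgfb3, Smad7 and Pmepa1 fell in each.

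Among the genes that rose in each genotype, Tgfbr3 was at 3.57 times its day 0 level on day 2 in KO-labelled cells (log2 change 1.82, SE 0.03, adjusted p = 1.14e-13) and 4.31 times in WT cells (2.08, SE 0.03, adjusted p = 1.37e-14). Tgfbr2 reached 2.53 times its day 0 level in KO-labelled cells (log2 change 1.31, SE 0.03, adjusted p = 6.13e-12) and 1.46 times in WT cells (0.52, SE 0.03, adjusted p = 1.67e-08). Inhba reached 2.32 times its day 0 level in KO-labelled cells (log2 change 1.12, SE 0.04, adjusted p = 6.21e-11) and 1.84 times in WT cells (0.84, SE 0.04, adjusted p = 4.3e-10). As large a change as that of Tgfbr3 was found in 4.00% of all genes in KO-labelled cells and in 7.08% in WT cells.

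The genes that fell in each genotype did so to different extents. Tgfb3 was 4.21-fold lower on day 2 than on day 0 in KO-labelled cells (log2 change -1.77, SE 0.07, limma adjusted p = 2.75e-10) and 7.57-fold lower in WT cells (-2.61, SE 0.07, adjusted p = 3.4e-12). Smad7 was 1.57-fold lower in KO-labelled cells (log2 change -0.57, SE 0.08, adjusted p = 6.56e-05) and 6.10-fold lower in WT cells (-2.31, SE 0.08, adjusted p = 8.59e-11). Pmepa1 fell by 0.65 on the log2 scale in KO-labelled cells (SE 0.03, adjusted p = 3.89e-09) and by 0.56 in WT cells (SE 0.03, adjusted p = 7.7e-09).

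The other genes, Tgfb1, Tgfb2 and Tgfbr1, did not pass the threshold in the same direction in each genotype. Tgfb1 rose slightly in KO-labelled cells, to 1.15 times its day 0 level (log2 change 0.19, SE 0.05, limma adjusted p = 0.0031), and fell 1.97-fold in WT cells (-0.94, SE 0.05, adjusted p = 1.95e-09). Tgfb2 was 6.63-fold lower on day 2 in KO-labelled cells (log2 change -1.90, SE 0.11, adjusted p = 1.09e-08) and 1.31 times its day 0 level in WT cells (0.30, SE 0.11, adjusted p = 0.0201). The small WT rise of Tgfb2 missed the threshold with a pseudocount of 0.1 (adjusted p = 0.0673), with no filter (0.0508) and without WT day 0 replicate 2 (0.0682), WT day 0 replicate 3 (0.0509) or WT day 2 replicate 1 (0.078). Tgfbr1 rose in WT cells (log2 change 0.39, SE 0.06, adjusted p = 8.6e-05) and had a change of 0.07 in KO-labelled cells (SE 0.06, adjusted p = 0.319). Without KO day 0 replicate 1 that change was 0.15 (adjusted p = 0.0129).

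**Figure D4:**
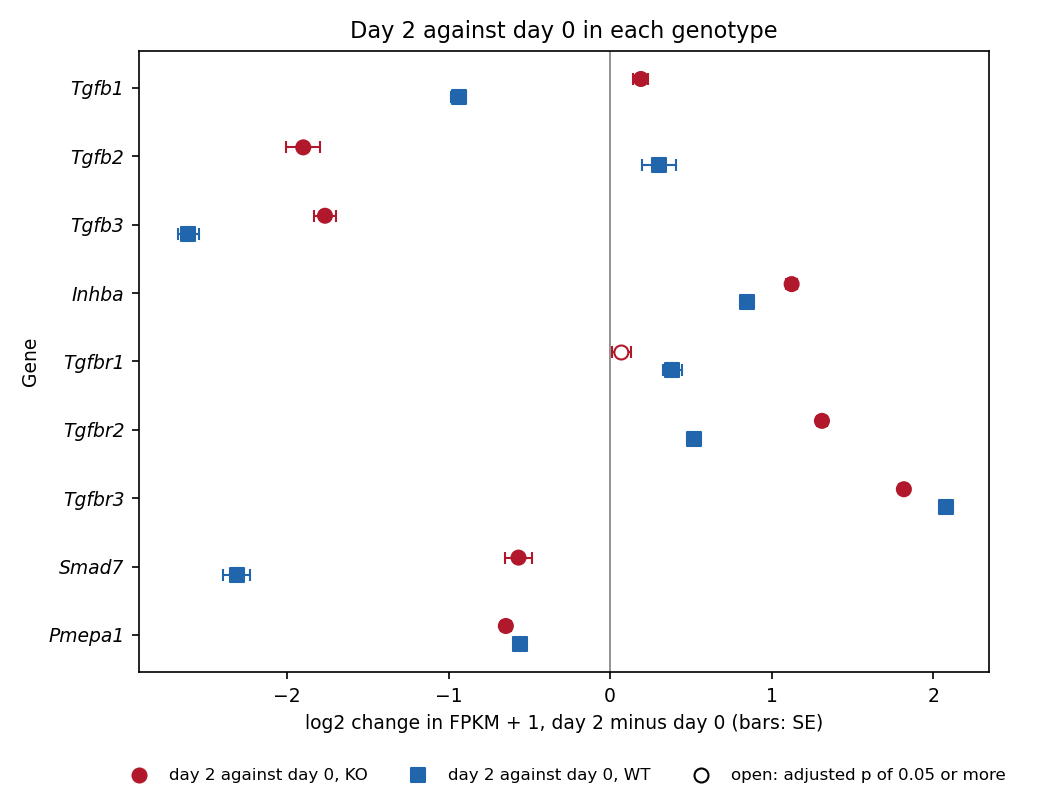
log2 change in FPKM + 1 between day 2 and day 0 (horizontal axis) for the 9 genes in cells labelled KO (circles) and WT (squares), with SE bars. Open symbols have an adjusted p of 0.05 or more. Tgfb1 lies at 0.19 in KO-labelled and -0.94 in WT cells, and Tgfb2 at -1.90 in KO-labelled and 0.30 in WT cells.

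The difference between the responses, that of KO-labelled cells minus that of WT cells, was tested as an interaction. It passed in 8 of the 9 genes, 5 positive and 3 negative, where 73.8% of all genes passed, 40.8% positive and 33% negative. Under quantile normalization the balance over all genes turned, with 4636 genes positive and 4919 negative, against 5282 and 4278 as reported. The interaction was at least 2-fold in 3 of the 9, against 21.5% of all genes. By size it was led by Tgfb2 at -2.20 (SE 0.15, adjusted p = 6.53e-08), Smad7 at 1.75 (SE 0.12, adjusted p = 5.95e-08) and Tgfb1 at 1.13 (SE 0.07, adjusted p = 1.66e-08). Pmepa1 had an interaction of -0.08 (SE 0.05, adjusted p = 0.113), which passed with TPM scaling (-0.15, adjusted p = 0.0241), with median-of-ratios scaling (-0.13, adjusted p = 0.0211) and without WT day 2 replicate 1 (-0.11, adjusted p = 0.0381).

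The rest of the pathway was followed in 6 lists with 68 genes, of which 52 were tested. The 16 others were under the minimum mean, among them the activin B gene Inhbb, the type I receptor gene Acvr1c, the decoy receptor gene Bambi and the contractile target Tagln. Of the 52, KO-labelled cells were higher in 35 and lower in 12 on day 2, where 40.8% of all genes tested were higher and 40.6% lower. On day 0 they were higher in 20 and lower in 28, where 38.3% of all genes were higher and 44.2% lower. Between the days, 14 of the 52 rose and 34 fell in KO-labelled cells, where 33.9% of all genes rose and 38.8% fell, while 8 rose and 40 fell in WT cells, where 34.2% of all genes rose and 46.5% fell. Of the tested genes, Eng, Ccn2, Tgfbi and Il11 reached the minimum only through their highest group, so that a difference between groups was needed for them to be tested. Without these 4, KO-labelled cells were higher in 33 and lower in 11 of 48 genes on day 2, and higher in 19 and lower in 26 on day 0. In the lists below, the same shares of all genes apply on each day, and the median log2 change of all genes was 0.00 on day 2 and -0.06 on day 0.

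Genes of ligand latency and release were higher in KO-labelled cells in 8 and lower in 1 of 9 tested on day 2, and higher in 4 and lower in 4 on day 0, with median log2 changes of 1.14 and 0.01. On day 2 the latent TGF-beta binding protein gene Ltbp1 was at 38.2 ± 0.559 FPKM in KO-labelled and 7.12 ± 0.174 in WT cells, 5.36 times as high. Fbn1, the fibrillin that anchors the latent complex, was at 59.8 ± 1.60 in KO-labelled and 5.69 ± 0.187 in WT cells, and Thbs1, a thrombospondin that can activate latent TGF-beta, at 31.4 ± 0.408 and 6.43 ± 0.319. The WT level of these genes fell steeply between the days, Fbn1 being 25.2-fold lower on day 2 than on day 0. In KO-labelled cells Fbn1 was 2.42-fold and Thbs1 5.29-fold lower on day 2, and Ltbp1 was at 1.05 times its day 0 level. On day 0 Ltbp1 (36.4 FPKM in KO-labelled, 56.7 in WT cells) and Thbs1 (166 and 220) were lower in KO-labelled cells. Fbn1 was at 145 and 143 on that day. On day 0 the smallest p-values were those of Emilin1, which binds the TGF-beta precursor (149 ± 2.03 in KO-labelled, 66.7 ± 2.09 in WT cells), Ltbp3 (71.7 ± 0.927 and 35.3 ± 0.437) and Ltbp2 (125 ± 2.46 and 57.0 ± 1.68). Ltbp3 was the gene that was lower on day 2, at 39.2 FPKM in KO-labelled and 63.4 in WT cells.

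Of the other ligands and binding proteins, all 3 tested were higher in KO-labelled cells on day 2, and 2 were higher and 1 lower on day 0. Gdf11, a ligand that shares activin receptors, was at 6.99 ± 0.420 FPKM in KO-labelled and 1.01 ± 0.229 in WT cells on day 2 and at 12.6 ± 1.08 and 7.86 ± 0.370 on day 0. Inha, the inhibin alpha subunit, was at 10.0 ± 1.24 in KO-labelled and 3.86 ± 0.503 in WT cells on day 2 and at 8.91 ± 1.09 and 4.15 ± 0.478 on day 0. Fst was the gene that turned, at 52.3 ± 1.66 in KO-labelled and 34.9 ± 1.30 in WT cells on day 2 but 8.74 ± 0.757 and 13.0 ± 0.258 on day 0, and it rose in each genotype.

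Among the other receptor genes, Acvr2a, an activin type II receptor, was higher in KO-labelled cells, at 46.8 ± 1.91 FPKM against 20.9 ± 1.22 in WT cells on day 2 and 80.1 ± 2.25 against 29.2 ± 0.618 on day 0. Acvr1b, the activin type I receptor, was lower, at 7.80 ± 0.161 against 14 ± 0.417 on day 2 and 3.88 ± 0.310 against 5.76 ± 0.297 on day 0. Cd109, a co-receptor that restrains the pathway, was at 7.88 ± 0.782 in KO-labelled and 0.327 ± 0.0679 in WT cells on day 2 and at 15.8 ± 0.594 and 25.8 ± 0.190 on day 0. In all, 3 of 5 tested receptor genes were higher and 1 lower on day 2, and 2 higher and 3 lower on day 0, which without Eng are 2 higher and 1 lower of 4 on day 2 and 1 higher and 3 lower on day 0. Acvr2b, the other type II activin receptor, was lower on day 0 at 0.993 FPKM in KO-labelled and 2.00 in WT cells.

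The signal carriers also divided. Smad3 was higher in KO-labelled cells, at 57.5 ± 2.43 FPKM against 44.6 ± 1.18 in WT cells on day 2 and 99.9 ± 0.908 against 69.1 ± 2.17 on day 0. Its partner Smad2 was lower, at 24.6 against 34.1 on day 2 and 29.2 ± 1.24 against 49.1 ± 2.78 on day 0. Smad4, the shared partner of both, was at 60.6 ± 1.53 in KO-labelled and 42.5 ± 1.73 in WT cells on day 2 (log2 change 0.50, adjusted p = 5.12e-08) and had a change of -0.18 on day 0, a call that ended with TPM scaling (-0.08, adjusted p = 0.0918). Of the 7 tested genes of this list 4 were higher and 3 lower on day 2, and 2 higher and 5 lower on day 0. The coactivator gene Ep300 was at 115 ± 4.71 in KO-labelled and 60.0 ± 1.2 in WT cells on day 2, and the transcription factor gene Sp1 at 65.3 ± 0.551 and 89.3 ± 0.990 on day 0.

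Of 11 negative regulators, 4 were higher and 5 lower in KO-labelled cells on day 2, and 2 higher and 7 lower on day 0. The ubiquitin ligase gene Smurf1, whose protein removes TGF-beta receptors together with Smad7, was at 12.6 ± 0.405 FPKM in KO-labelled and 26.7 ± 0.772 in WT cells on day 2 and at 16.7 ± 0.256 and 33.3 ± 1.19 on day 0. On day 0 Nedd4l, another ligase gene, was at 1.94 ± 0.0947 in KO-labelled and 9.05 ± 0.614 in WT cells, and Skil, a feedback repressor of Smad activity, at 8.16 ± 0.351 and 16.1 ± 0.727. On day 2 the phosphatase gene Ppm1a was at 47.9 ± 0.755 in KO-labelled and 83.8 ± 4.87 in WT cells, and Smurf2 at 48.6 ± 1.91 and 64.5 ± 0.841. Ski, a relative of Skil, fell 2.70-fold between the days in KO-labelled and 2.84-fold in WT cells.

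Textbook target genes of TGF-beta were split between higher and lower on day 0, and most were higher in KO-labelled cells on day 2. Of 17 tested, 13 were higher and 2 lower in KO-labelled cells on day 2 (median log2 change 1.16, that of all genes 0.00), where 40.8% of all genes were higher and 40.6% lower. On day 0, 8 were higher and 8 lower (median 0.16, that of all genes -0.06), where 38.3% of all genes were higher and 44.2% lower. Without Ccn2, Tgfbi and Il11, 12 were higher and 1 lower of 14 on day 2 (median 1.95), and 8 were higher and 6 lower on day 0 (median 0.23). Between the days, 6 of the 17 rose and 10 fell in KO-labelled cells (median -0.30, that of all genes -0.03), where 33.9% of all genes rose and 38.8% fell. In WT cells 2 rose and 15 fell (median -2.14, that of all genes -0.11), where 34.2% of all genes rose and 46.5% fell. Without the same 3 genes, 6 rose and 8 fell in KO-labelled cells, and 2 rose and 12 fell in WT cells. The matrix genes Col1a1, Col1a2, Fn1 and Postn were higher on each day. Other targets, named after their values were seen, did not follow them. Tgfbi was lower on each day, at 0.0482 FPKM in KO-labelled and 1.18 in WT cells on day 2 and 0.0824 and 10.3 on day 0. On day 0 Ccn2 (0.278 in KO-labelled, 7.98 in WT cells) and Timp1 (102 and 279) were lower. Tgfbi and Ccn2 reached the minimum mean only through WT day 0 cells. A difference between groups was needed for them to be tested, so their day 0 direction is no support. Ccn2 and Tnc did not pass on day 2. Col1a1 was at 2024 ± 39.5 FPKM in KO-labelled and 161 ± 2.22 in WT cells on day 2, and Fn1, the fibronectin gene, at 1460 ± 36.3 and 246 ± 2.09. Col1a2 was at 1972 ± 39.3 in KO-labelled and 339 ± 4.86 in WT cells on day 2 and at 7281 ± 50.4 and 2684 ± 19.8 on day 0, and Postn, the periostin gene, was at 595 ± 4.55 and 219 ± 4.10 on day 0.

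Some targets, chosen here after their values were seen, changed sides between the days. Snai1, a transcription repressor of the epithelial to mesenchymal transition, was at 55.7 FPKM in KO-labelled and 25.9 in WT cells on day 2 and at 11.0 and 55.0 on day 0. The smooth muscle actin gene Acta2 was at 19.6 in KO-labelled and 2.54 in WT cells on day 2 and at 74.0 and 541 on day 0. Higher on day 2 and lower on day 0 were 5 of the 17 targets, namely Junb, Klf10, Snai1, Acta2 and Timp1, a combination held by 9.81% of all genes.

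**Figure D5:**
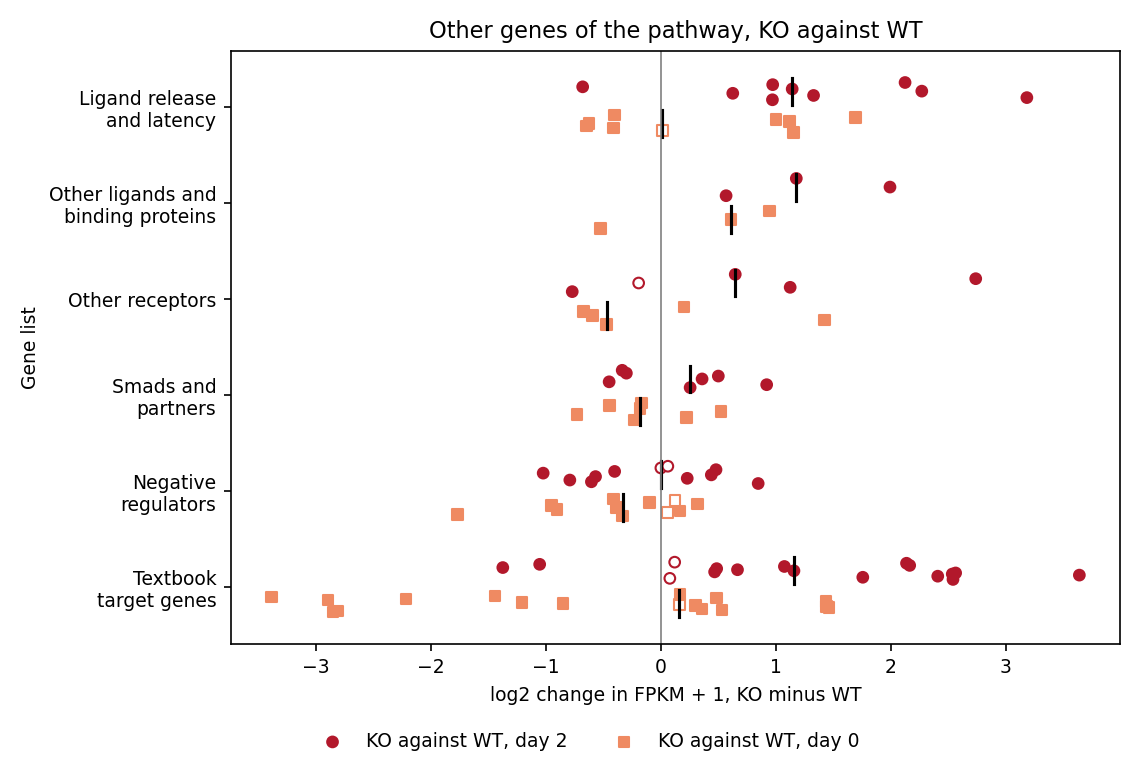
log2 change in FPKM + 1 of cells labelled KO against WT (horizontal axis) for the 52 tested genes of 6 pathway lists on day 2 (circles) and day 0 (squares). Each symbol is a gene, open where the adjusted p is 0.05 or more, and the black bar is the median of the list. The median of the target genes is 1.16 on day 2 and 0.16 on day 0.

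For each of the 9 genes the gene with the most similar profile over the 12 libraries was looked up, by Pearson's r of log2(FPKM + 1) among the other genes that averaged 5 FPKM or more (9662 genes, 9663 for Tgfb2). The 12 libraries form 4 tight groups, so r describes the order and spacing of 4 levels. Tgfbr3 was closest to the antiproliferative gene Btg1 (r = 0.999), Tgfb3 to the ephrin receptor gene Ephb2 (0.999) and Inhba to the transcription factor gene Myc (0.997). Pmepa1 was closest to the kinetochore gene Zwint (0.997), Tgfbr2 to the inositol phosphate kinase gene Ip6k2 (0.996), Tgfb1 to the cytokine signalling inhibitor gene Socs3 (0.996) and Smad7 to the aminotransferase gene Bcat1 (0.995). Tgfbr1 was closest to Plekha8 (0.993) and Tgfb2 to the netrin gene Ntn1 (0.983). Socs3, the profile most like that of Tgfb1, was at 46.7 ± 1.87 FPKM in KO-labelled day 2, 3.76 ± 0.234 in WT day 2, 32.4 ± 0.911 in KO-labelled day 0 and 32.9 ± 2.18 in WT day 0 cells.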

How the data were processed

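The 12 RNA-seq libraries were analysed, and the 24 MeRIP samples (12 immunoprecipitated, 12 input) were not. The authors deposited FPKM values for 52505 genes. The submitters' processing notes name Bowtie2 2.2.3, TopHat2 2.0.12, HTSeq 0.6.1 and the build mm10 among their tools, without their roles, and no source used here gives the FPKM formula or gene annotation. Of the identifiers 51633 matched a symbol. In all 30916 genes above 0 the values were whole multiples of a step (tolerance 0.001 of a read), which gave the read numbers. A gene above 0 in few libraries can hardly fail that check. Among the 16215 genes detected in every library, 99.99% gave a whole gene length (tolerance 0.05 bases).

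Values were tested as log2(FPKM + 1), a scale that understates changes of low genes, for 12961 genes averaging 1 FPKM or more, by limma 3.58.1 in R 4.3.3 on 4 group means (8 residual degrees of freedom) with a variance trend. Tests were 2-sided with Benjamini-Hochberg adjustment over all genes tested in a comparison and a threshold of 0.05. Ratios are of mean FPKM. The fit was tried on simulated data for KO against WT on day 0 alone, with few of the genes changed. That setting differs from these data, where most genes passed, so it does not cover the comparisons reported. The genes, lists and tests were chosen with earlier results of these data known. From each list the text names the 3 genes with the smallest adjusted p in KO against WT on each day and the 1 in each response, beside Zfp217 and the 9 genes, and others where it says so or as the members of a count. A gene that the rule names among the targets is not reported here. Replicate pairs of a group differed by a median chi-square of 1.38 to 2.15 times counting noise, so none was counted as a duplicate. Alternatives were a pseudocount of 0.1, no filter, a mean of at least 5 FPKM, scaling by TPM, by median of ratios or by quantiles, a fit without variance trend, a fit to the compared groups alone, the replicate number as a block, leaving out each library, and limma's voom on the recovered reads. List counts without genes that passed the minimum only through their highest group were added after seeing the data.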

Additional observations from a re-analysis of the deposited data

Results flagged for a closer look

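The changes between the days differed between the genotypes by the interaction test (limma, adjusted p under 0.05) in 8 of the 9 genes and in Zfp217. The values are the log2 change from day 0 to day 2 in KO-labelled cells minus that in WT cells. Tgfb2 and Tgfb1 had responses of opposite sign in the genotypes, with differences of -2.20 and 1.13. Smad7 differed by 1.75 and Tgfb3 by 0.85, since each fell less in KO-labelled cells. Tgfbr2 differed by 0.79 and Inhba by 0.28, each rising more in KO-labelled cells. Tgfbr1 differed by -0.32 and Tgfbr3 by -0.26, the change being larger in WT cells. Zfp217 itself differed by 0.32. An interaction passed in 73.8% of all genes tested, so such a difference is common in these data.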

How the results depend on the processing

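Of 976 values of the 9 genes under other settings, 952 kept their direction and their side of the threshold, 17 missed it, 4 passed it newly and 3 changed sign. The 3 were Tgfb1 in KO against WT on day 0, with 0.068 under TPM scaling, 0.0782 under quantile normalization and, with 1 library left out, -0.0892 to 0.0236, positive without WT day 0 replicate 1. The cause was not tested. The 17 concern Tgfb3 in KO against WT on day 2 and Tgfb2 in the WT response. Tgfb2 has no value with a mean of at least 5 FPKM. Of 1494 values of the 28 list genes covered by the naming rule, 1 missed and 5 newly passed the threshold, and none changed sign. The genes past the threshold numbered 8362 to 12990 in KO against WT on day 2, against 10551 as reported, and 8405 to 13843 on day 0, against 10684. Quantile normalization moved the median of all genes in the WT response to 0.01, against -0.11 as reported. It turned the balance of that response to 5226 genes higher and 5136 lower, against 4429 and 6032. The balance of the KO response turned to 4935 higher and 4494 lower with median-of-ratios scaling, against 4397 and 5029. The nearly even balance of KO against WT on day 2, 5294 higher and 5257 lower, became 5091 and 5392 with quantile normalization. With the replicate number as a block, 10515 genes passed on day 2 and 10652 on day 0, and the same number of the 9 genes as without it in every comparison. The numbers were not taken to pair samples, since no label says that they do. Same-numbered libraries deviated together with correlations of only -0.05 to 0.09. Of the 12 libraries, 6 had their own number as the best match among all libraries of the other groups. Some such matches arise without pairing, so this count does not settle it. Depth limits Tgfb2 most.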

Other observations

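The mitochondrial ribosomal RNA gene mt-Rnr1 and the chaperone gene Hsp90aa1 mark the library that stood apart. The mt-Rnr1 level was 13.5 to 17.2 FPKM in KO-labelled day 2, 15.6 to 19.9 in WT day 2 and 379 to 396 in KO-labelled day 0 libraries, and 7.01, 5.87 and 264 in the WT day 0 libraries. Hsp90aa1 was at 886 FPKM in WT day 0 replicate 3 and at 27.2 and 28.5 in the other WT day 0 libraries. Both were chosen after their values were seen. The 4 genes within 1 Mb of Inhba had a median log2 change in KO against WT of 1.07 on day 2 and 0.33 on day 0, opposite in sign to the changes of -0.71 and -0.99 of Inhba itself.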
